A study of Homo sapiens with 9 samples.

Results

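The 36 genes described here encode chaperones, disulfide and proline isomerases, stress sensors, degradation factors and translocation factors of the endoplasmic reticulum (ER). They were taken by name from a list that was drawn up with earlier results of these libraries known; no measured value enters the rule. All 36 were among the 16630 genes of the expression table and among the 13273 genes tested. By role they comprised 10 chaperones and cofactors, 2 lectin chaperones, 10 disulfide and proline isomerases with related folding factors, 4 stress sensors and transcription factors, 5 genes of degradation, and 5 of translocation and export.

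RNA was measured in H1650, an established human non-small cell lung cancer line, on day 3 after transfection with siRNA at 20 nM. Control cells were given a pool of non-targeting siRNAs, siMENA cells a pool directed at ENAH as a whole, and siMENA11a cells 3 mixed siRNAs directed at its exon 11a. ENAH encodes hMENA, an actin regulator of the Ena/VASP family, and exon 11a defines its epithelial isoform. Each group had 3 libraries, made from 500 ng of ribosome-depleted total RNA with a stranded kit and read as pairs of 75 bases. The labels call them biological replicates, and nothing in the labels says that they came from separate cultures, so p-values measure only the spread between these libraries. All groups share 1 cell line, and all groups were transfected; no untransfected cells were analysed here.

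Values are FPKM, fragments scaled by gene length and by library total. ENAH was lower in every siRNA library than in control: it measured 26.1 to 30.04 FPKM in control, 4.43 to 5.79 in siMENA and 9.98 to 11.0 in siMENA11a, a mean of 19.2% and 38.1% of control. These values cover the whole gene, so the exon 11a isoform and the other isoforms were not measured apart. The table holds no counts, so total depth is unknown. Steps between low values put the other libraries at 1.14 to 1.59 times the depth of control replicate 1. That estimate is rough, as the commonest step held 25 to 123 of the 663 to 798 genes compared in each library. Control replicate 1 had 0 missing values, and the other libraries had 411 to 592 each. All 6 epithelial markers searched were present (KRT8 averaged 1446 FPKM), and the summed epithelial markers were 4820 to 5135 FPKM in control, 4693 to 4893 in siMENA and 3939 to 4425 in siMENA11a; the part of that difference in the results below was not tested. Of the fibroblast, leukocyte and endothelial markers, 2 of 5, 2 of 5 and 3 of 4 were in the table, the highest being CD14 at a mean of 4.12 FPKM. In bulk RNA, fewer cells of a kind and less RNA per cell cannot be told apart. Fold changes were computed from log2(FPKM + 1), so those of low genes come out smaller than the change in FPKM. They were tested with limma, with p-values adjusted over all genes tested and a threshold of 0.05. The siMENA and siMENA11a comparisons share the same 3 control libraries.

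As background, the ER is where secreted and membrane proteins enter the secretory route, fold, gain disulfide bonds and are inspected before export. When unfolded proteins accumulate, the membrane sensors IRE1 (gene ERN1), PERK (EIF2AK3) and ATF6 start the unfolded protein response, in which ATF6 and the spliced form of XBP1 switch on chaperone, isomerase and degradation genes and PERK slows translation. ATF6 and XBP1 act through short promoter elements, the ER stress elements ERSE and ERSE-II and the unfolded protein response element UPRE.

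The promoters are shown because the genes are commonly described as a co-regulated set and the data bear on whether they moved together. RefSeq promoters on GRCh38.p14, 250 bases before to 50 after the start, were found for 34 of the 36 genes, the others being PDIA3 and SEC24D. ERSE was searched on both strands as CCAAT, 9 bases of any kind and CCACG. It matched 7 of the 34 (20.6%), against 0.163% of the 9219 tested genes with a promoter entry and 0.0916% of all 27305 genes with an entry. Each match is printed 5′ to 3′ in the direction of the element with 10 flanking bases, and the capitals mark its fixed letters.
HSPA5, chr9:125241381-125241419, minus strand: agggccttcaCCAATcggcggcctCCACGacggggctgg
CALR, chr19:12938374-12938412, minus strand: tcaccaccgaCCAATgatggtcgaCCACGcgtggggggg
CANX, chr5:179698768-179698806, plus strand: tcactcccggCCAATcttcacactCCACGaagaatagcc
PDIA6, chr2:10812843-10812881, minus strand: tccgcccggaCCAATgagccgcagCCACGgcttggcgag
CRELD2, chr22:49918544-49918582, minus strand: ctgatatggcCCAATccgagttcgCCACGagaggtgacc
XBP1, chr22:28800593-28800631, minus strand: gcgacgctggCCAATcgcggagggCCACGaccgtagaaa
HSP90B1, which fell under both siRNA preparations, held 2 ERSE matches on opposite strands, and its whole promoter window is therefore shown (chr12:103930160-103930459, plus strand). The capitals again mark the fixed letters, read as the reverse complement in the second match.
HSP90B1: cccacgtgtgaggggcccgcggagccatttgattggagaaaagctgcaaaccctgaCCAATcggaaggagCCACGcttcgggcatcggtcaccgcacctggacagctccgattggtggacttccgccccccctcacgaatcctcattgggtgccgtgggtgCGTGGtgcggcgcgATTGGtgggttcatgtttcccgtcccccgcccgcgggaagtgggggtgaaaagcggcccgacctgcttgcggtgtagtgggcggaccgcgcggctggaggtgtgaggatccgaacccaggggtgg

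ERSE-II, searched on both strands as ATTGG, 1 base of any kind and CCACG, matched 3 of the 34 (8.82%), against 0.152% of tested genes: HYOU1 with 2 matches, SDF2L1 and HERPUD1. HYOU1, which rose most under siMENA, and SDF2L1, which fell most under siMENA11a, are printed in the direction of the element.
HYOU1, chr11:119057264-119057294, plus strand: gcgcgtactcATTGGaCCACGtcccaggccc
HYOU1, chr11:119057370-119057400, plus strand: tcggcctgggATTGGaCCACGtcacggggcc
SDF2L1, chr22:21642104-21642134, minus strand: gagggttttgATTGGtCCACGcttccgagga
UPRE, searched on both strands as TGACGTGG, matched HYOU1, where it overlaps an ERSE-II match, DNAJC10 and TXNDC5 (8.82%, against 1.23% of tested genes). With at most 1 mismatch in CCACG, ERSE was found in 12 of the 34 (35.3%, against 1.81%). A match is a description of letters in the window and not evidence of binding. The genes were named as unfolded protein response genes and the elements are those of that response. Their excess over all tested genes can follow from that choice and is not read as a result.

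Fewer of these genes passed under siMENA than under siMENA11a, and among those that passed more fell than rose under both preparations. Under siMENA 7 of 36 fell and 2 rose. Those that fell were the chaperones HSP90B1 and CANX, the co-chaperone DNAJB11, the isomerases PDIA6, PPIB and FKBP2 and the degradation adaptor SEL1L, and those that rose were HYOU1 and DNAJC10. Under siMENA11a 14 of 36 fell and 2 rose: CALR, HSP90B1, SDF2L1, MANF and DNAJB11 among the chaperones and cofactors, PDIA4, PDIA5, PDIA6, P4HB, TXNDC5, CRELD2 and PPIB among the isomerases, EDEM1 and SSR2 fell, while XBP1 and DNAJC10 rose. Between the siRNA groups, 13 were lower in siMENA11a than in siMENA (SDF2L1, MANF, CALR, PDIA4, PDIA5, P4HB, TXNDC5, CRELD2, SSR2, PPIB, HYOU1, ATF6 and SEC61A1) and 2 higher (CANX and SEL1L). The other 14 genes passed in none of the 3 comparisons.

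These counts are read against the share of all tested genes called in the same direction. Under siMENA, 19.4% of the genes fell, against 8.24% of all tested genes, and 5.56% rose, against 10.3%. Under siMENA11a, 38.9% fell, against 11.3%, and 5.56% rose, against 8.16%. Between the siRNA groups, 36.1% were lower in siMENA11a, against 22.2%, and 5.56% higher, against 14.4%. The median log2 fold change of the 36 genes was -0.01 under siMENA, -0.12 under siMENA11a and -0.09 between the siRNA groups. Over all tested genes the medians were 0.04, -0.01 and -0.05. Without a test, counted by libraries that do not overlap between groups, 11 genes were lower and 8 higher under siMENA (16.3% and 23.8% of all tested genes), and 21 were lower and 3 higher under siMENA11a (20.2% and 16.6%).

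The share of calls that were lower among all genes depended on scaling. Under siMENA it was 44.4% as deposited, 56.4% after median-ratio scaling and 52.0% after quantile normalization. In the same order it was 58.1%, 54.4% and 50.9% under siMENA11a, and 60.6%, 50.7% and 50.9% between the siRNA groups. Under those scalings 9 of the 36 genes fell and 2 rose under siMENA, 13 fell and 2 rose under siMENA11a, and 11 were lower and 3 higher between the siRNA groups. Calls over all tested genes in either direction then numbered 2365 (median-ratio) and 2444 (quantile) under siMENA. They numbered 2612 and 2674 under siMENA11a, and 4614 and 4648 between the siRNA groups. A fit with the replicate number as a block gave 5 higher and 7 lower under siMENA, adding DNAJB9 (adjusted p 0.0375), CRELD1 (0.0262) and XBP1 (0.0448) to the genes that rose. That fit also raised the calls over all tested genes under siMENA, from 2463 to 3149. The 7 genes that fell under siMENA became 4 when any 1 of control replicates 1 and 3 and siMENA replicates 1 and 2 was left out, and the 2 that rose became 1 without control replicate 1, control replicate 3 or siMENA replicate 1.

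**Figure D1:**
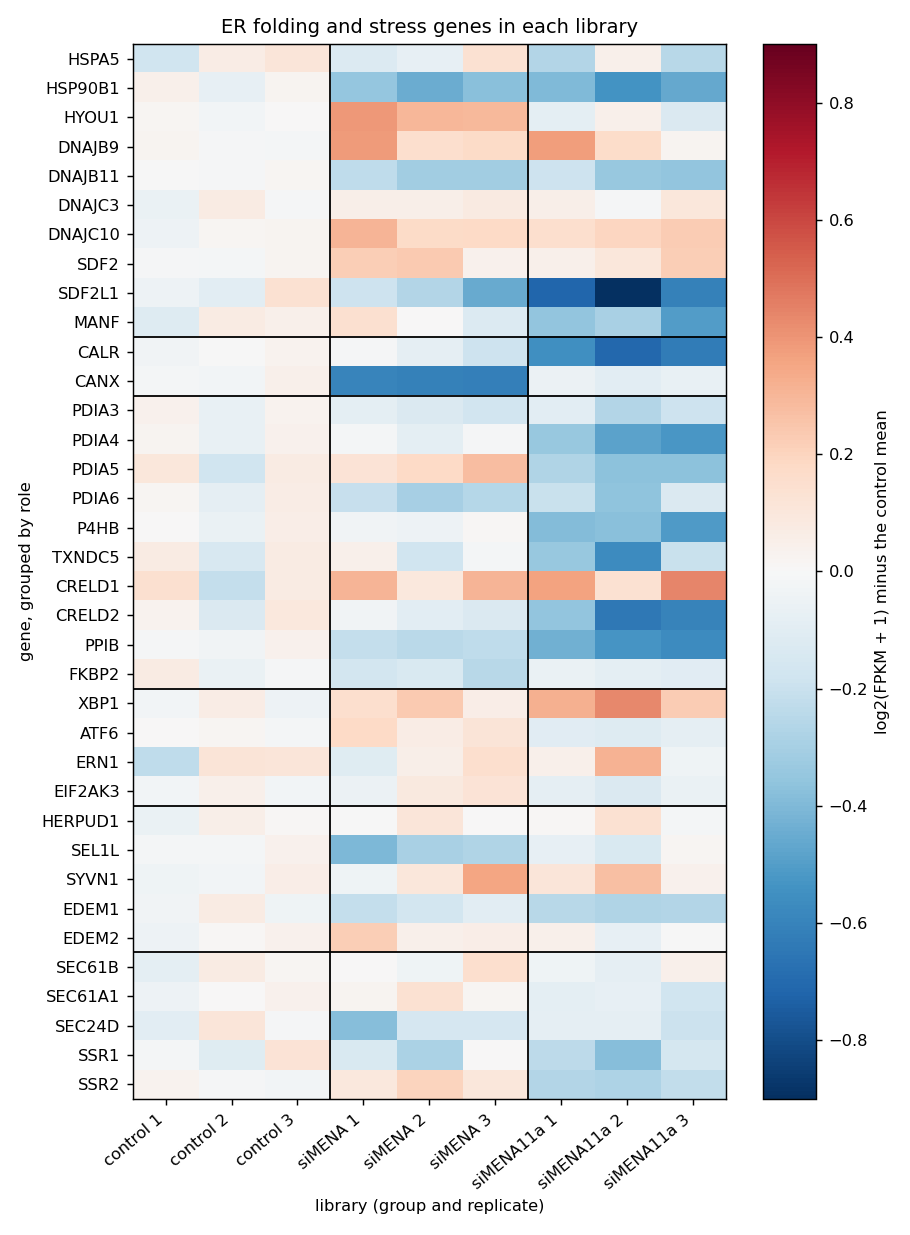
Heat map of log2(FPKM + 1) minus the control mean for the 36 genes (rows, grouped by role) in the 9 libraries (columns, by group and replicate); red is above and blue below the control mean. The siMENA11a columns are blue through much of the chaperone and isomerase blocks, CANX is blue in the siMENA columns, and HYOU1 is red in the siMENA columns.

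Summed over the 36 genes, expression was 3015.6, 2969.3 and 3096.8 FPKM in control, 2832.3, 2771.2 and 2779.2 in siMENA, and 2538.8, 2425.9 and 2458.9 in siMENA11a. The 3 groups did not overlap, with control highest and siMENA11a lowest. As a share of all FPKM the genes took 0.530% ± 0.024 (SD, n = 3) in control, 0.481% ± 0.004 in siMENA and 0.431% ± 0.002 in siMENA11a. That total includes the RNAs RPPH1 and RMRP, which together took 10.7% to 14.6% of it by library. The sum is carried by a few abundant genes. In control CALR was highest at 350.0 ± 7.1 FPKM, followed by HSP90B1 at 327.7 ± 14.4, P4HB at 314.8 ± 12.5 and PPIB at 308.0 ± 7.3. HSP90B1 and P4HB, and P4HB and PPIB, differed by less than the larger of their SDs, and CALR lay further above HSP90B1. The next, PDIA6, stood at 179.8 ± 9.6 FPKM, and the sensor ERN1 was lowest at 0.894 ± 0.248.

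Of the main general chaperones, HSP90B1 fell under both preparations and HSPA5 passed in no comparison. HSPA5 encodes BiP, the ER Hsp70 that also holds the sensors inactive. It measured 43.3, 51.7 and 53.3 FPKM in control, 45.2, 46.8 and 54.2 in siMENA, and 40.8, 50.9 and 41.3 in siMENA11a. The groups overlapped, and no comparison passed: the log2 fold change was -0.02 under siMENA (95% interval -0.26 to 0.22, adjusted p 0.922) and -0.16 under siMENA11a (-0.39 to 0.08, adjusted p 0.348). HSP90B1 encodes GRP94, the ER Hsp90. It measured 338, 311 and 334 FPKM in control, 256, 239.7 and 253 in siMENA, and 249, 226 and 238 in siMENA11a. Every library of either siRNA group was below every control library, while the siRNA groups overlapped. HSP90B1 fell by 0.39 (SE 0.06, adjusted p 0.00286) under siMENA and by 0.46 (SE 0.06, adjusted p 0.00116) under siMENA11a, to 76.2% and 72.5% of control.

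The Hsp70 cofactors moved in both directions. HYOU1, an Hsp110-like protein that exchanges nucleotide on BiP, measured 35.4, 34.4 and 35.1 FPKM in control, 46.1, 43.2 and 43.1 in siMENA, and 32.8, 36.1 and 31.9 in siMENA11a. Its siMENA libraries were above all others, and it rose by 0.33 (SE 0.06, adjusted p 0.00431), and was lower in siMENA11a than in siMENA by a log2 fold change of -0.39 (SE 0.06, adjusted p 0.000694). In siMENA11a it overlapped control (adjusted p 0.520). DNAJB11, a J-domain co-chaperone of BiP, measured 51.1, 51.0 and 51.8 FPKM in control, 43.6, 41.2 and 41.0 in siMENA, and 44.9, 40.3 and 39.99 in siMENA11a. Both siRNA groups were below all control libraries and overlapped each other. DNAJB11 fell by 0.29 (SE 0.06) in each, with adjusted p of 0.00747 and 0.00633.

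DNAJC10, a J-domain protein with disulfide reductase activity, rose under both preparations. It measured 23.8, 24.8 and 25.005 FPKM in control, 30.5, 27.7 and 27.8 in siMENA, and 27.3, 28.2 and 28.97 in siMENA11a, with all siRNA libraries above control. The log2 fold changes were 0.22 (SE 0.05, adjusted p 0.0214) and 0.19 (SE 0.05, adjusted p 0.0346). With the replicate block, CRELD1 and XBP1 also rose under both. The DNAJC10 calls depended on single libraries. Under siMENA the call ended without control replicate 1 (adjusted p 0.0753), control replicate 3 (0.0554) or siMENA replicate 1 (0.0853), with 0.0193 to 0.0853 over all alternatives. Under siMENA11a it ended when any 1 of the 6 libraries compared was left out (0.0573 to 0.104, with 0.0244 to 0.104 over all alternatives).

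SDF2L1 and MANF, small ER proteins that associate with BiP complexes, were lower under siMENA11a. SDF2L1 measured 20.6, 19.8 and 23.5 FPKM in control, 18.5, 17.5 and 15.2 in siMENA, and 12.6, 9.03 and 13.6 in siMENA11a. The 3 groups did not overlap, and siMENA lay between the others. SDF2L1 fell by 0.82 (SE 0.13, adjusted p 0.00295) under siMENA11a, to 55.1% of control, the largest change among the 36 genes in any comparison; under siMENA its log2 fold change of -0.30 did not pass (adjusted p 0.141). MANF measured 35.0, 40.1 and 39.2 FPKM in control, 42.1, 38.1 and 34.8 in siMENA, and 29.5, 30.9 and 26.6 in siMENA11a. All siMENA11a libraries were below the rest, and MANF fell by 0.38 (SE 0.08, adjusted p 0.0121). Against siMENA the log2 fold changes were -0.52 for SDF2L1 (adjusted p 0.0126) and -0.39 for MANF (adjusted p 0.00557). The SDF2L1 call against siMENA ended without siMENA replicate 1 (adjusted p 0.0504, with 0.00805 to 0.0504 over all alternatives).

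The J-domain proteins DNAJB9 and DNAJC3 and SDF2, the constitutive relative of SDF2L1, passed in none of the comparisons. Group means were 10.9, 13.1 and 12.7 FPKM for DNAJB9 and 31.0, 35.0 and 33.9 for SDF2 in control, siMENA and siMENA11a. For DNAJB9, which trims stress signalling through IRE1, all siMENA libraries were above control (log2 fold change 0.24, adjusted p 0.107, and 0.0375 with the replicate block). DNAJC3, also known as p58IPK, had means of 11.6, 12.1 and 12.0 FPKM.

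Each lectin chaperone fell under a different preparation. Calreticulin (CALR, soluble) and calnexin (CANX, membrane-bound) bind the same glucose-trimmed glycans on newly made glycoproteins. CALR measured 343, 349.5 and 357 FPKM in control, 347, 330.1 and 308 in siMENA, and 238, 214 and 226 in siMENA11a. It was lower in all siMENA11a libraries, and fell by 0.63 (SE 0.07, adjusted p 0.000319) to 64.6% of control, whereas siMENA overlapped control (log2 fold change -0.09, adjusted p 0.355). CANX measured 153, 152 and 159.7 FPKM in control, 102, 101 and 101 in siMENA, and 149, 145 and 148 in siMENA11a. It was lower in all siMENA libraries, and fell by 0.61 (SE 0.05, adjusted p 5.39e-05) to 65.4% of control. In siMENA11a CANX lay just below control without passing (log2 fold change -0.07, 95% interval -0.17 to 0.03, adjusted p 0.303).

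The difference between the siRNA groups was tested directly for both lectins. In siMENA11a, CALR was lower than in siMENA by a log2 fold change of -0.54 (SE 0.07, adjusted p 0.000249) and CANX higher by 0.53 (SE 0.05, adjusted p 3.74e-05). Within a library, the ratio of CALR to CANX FPKM was 2.24, 2.30 and 2.24 in control, 3.40, 3.26 and 3.06 in siMENA, and 1.60, 1.48 and 1.53 in siMENA11a. The ratio was thus above control in every siMENA library and below control in every siMENA11a library. All 9 values of both genes had lost their decimal point in the table and were repaired by the same divisor.

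**Figure D2:**
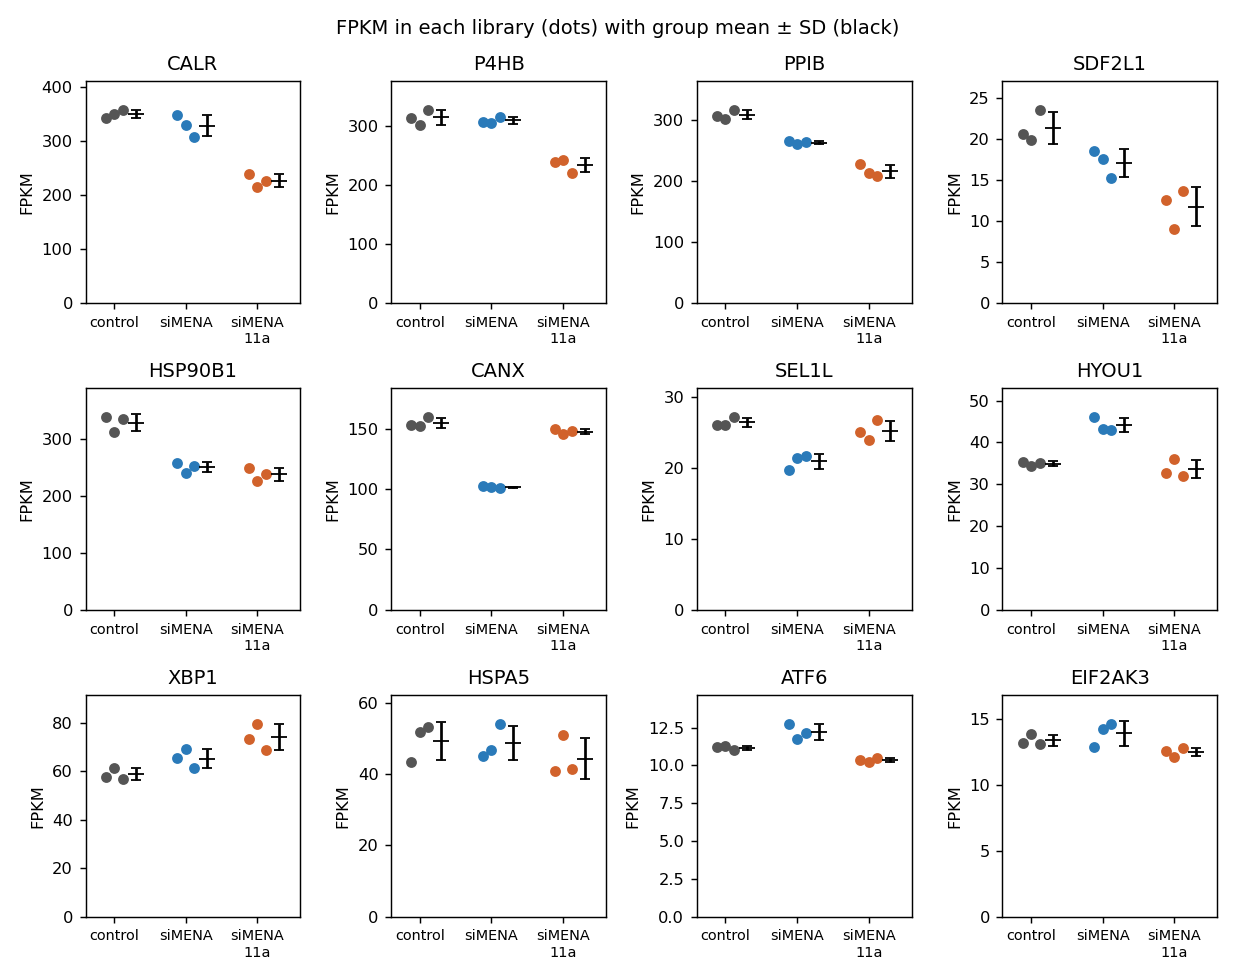
FPKM of 12 of the 36 genes by group, with a dot for each library and the mean ± SD of the 3 libraries in black; each panel starts at 0 and has its own scale. CALR, P4HB, PPIB and SDF2L1 are lowest in siMENA11a, CANX and SEL1L are lowest and HYOU1 highest in siMENA, and HSPA5 overlaps in all groups.

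Of the 10 isomerases and related factors, 7 fell under siMENA11a and none rose, and 3 fell under siMENA and none rose. Of all tested genes, 11.3% fell and 8.16% rose under siMENA11a, and 8.24% fell and 10.3% rose under siMENA. P4HB, the founding protein disulfide isomerase and a subunit of collagen prolyl hydroxylase, measured 315, 302 and 327 FPKM in control, 307, 305 and 316 in siMENA, and 239.8, 242 and 220.4 in siMENA11a. PDIA4 (ERp72), a disulfide isomerase with an additional thioredoxin-like domain, measured 98.3, 92.2 and 98.9 FPKM in control, 95.4, 90.7 and 95.9 in siMENA, and 76.0, 68.9 and 66.8 in siMENA11a. For both genes the siMENA11a libraries were below all others while siMENA overlapped control. P4HB fell by 0.43 (SE 0.06, adjusted p 0.00143) and PDIA4 by 0.45 (SE 0.06, adjusted p 0.00118) under siMENA11a. Against siMENA the log2 fold changes were -0.40 (adjusted p 0.000745) and -0.41 (adjusted p 0.000684).

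CRELD2, a stress-inducible ER factor with disulfide isomerase activity, and PDIA5, another disulfide isomerase, were also lowest in siMENA11a. CRELD2 measured 31.5, 28.2 and 33.1 FPKM in control, 30.2, 28.9 and 28.1 in siMENA, and 23.9, 19.4 and 20.0 in siMENA11a. It fell by 0.53 (SE 0.08, adjusted p 0.00266) under siMENA11a and differed from siMENA by -0.45 (adjusted p 0.00272). PDIA5 measured 8.64, 6.92 and 8.45 FPKM in control, 8.77, 9.15 and 9.89 in siMENA, and 6.44, 5.95 and 5.94 in siMENA11a. The siMENA11a libraries were lowest for both genes, and for PDIA5 the siMENA libraries were all above control without passing (adjusted p 0.143). PDIA5 was lower in siMENA11a than in siMENA by -0.53 (SE 0.09, adjusted p 0.00117). Against control its log2 fold change of -0.34 (adjusted p 0.0227) did not pass without control replicate 1 (0.0764), control replicate 3 (0.0846), siMENA11a replicate 2 (0.0515) or siMENA11a replicate 3 (0.0605), with 0.00898 to 0.0846 over all alternatives. TXNDC5, with means of 64.7, 62.5 and 50.1 FPKM in control, siMENA and siMENA11a, fell by 0.37 (adjusted p 0.0308) under siMENA11a. That call ended without control replicate 1 (0.0942), control replicate 3 (0.102), siMENA11a replicate 1 (0.0673) or siMENA11a replicate 2 (0.0732), with only the 6 libraries compared (0.0509) and with repaired values set to missing (0.0804), with 0.00243 to 0.102 over all alternatives. Against siMENA its log2 fold change was -0.32 (adjusted p 0.0331), a call that ended without siMENA replicate 1 (0.114), siMENA replicate 3 (0.0833), siMENA11a replicate 1 (0.0667) or siMENA11a replicate 2 (0.0912), and after median-ratio scaling (0.0737) or quantile normalization (0.0652), with 0.00231 to 0.114 over all alternatives.

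PPIB, the ER cyclophilin that isomerises proline bonds in collagen and other clients, fell under both preparations and further under siMENA11a. It measured 306, 302 and 316 FPKM in control, 265, 261 and 263 in siMENA, and 228, 213 and 207 in siMENA11a. The groups did not overlap. The log2 fold changes were -0.23 (SE 0.06, adjusted p 0.0186) and -0.51 (SE 0.06, adjusted p 0.000402), and siMENA11a was lower than siMENA by -0.28 (adjusted p 0.00333). The siMENA call for PPIB ended without control replicate 1 (adjusted p 0.0516), control replicate 3 (0.0779), siMENA replicate 1 (0.0583) or siMENA replicate 2 (0.0644), with 0.0139 to 0.0779 over all alternatives.

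PDIA6, an abundant isomerase that also attenuates stress sensing, measured 182, 169 and 188 FPKM in control, 155, 146 and 151 in siMENA, and 156, 139.7 and 164 in siMENA11a. All siRNA libraries were below control, and the siRNA groups overlapped. PDIA6 fell by 0.25 (adjusted p 0.0309) under siMENA and by 0.23 (adjusted p 0.0421) under siMENA11a. The siMENA call ended without any 1 of control replicates 1 and 3 or siMENA replicates 1, 2 and 3 (0.0657 to 0.115, with 0.0112 to 0.115 over all alternatives). The siMENA11a call ended without any 1 of control replicates 1 and 3, siMENA replicates 1, 2 and 3 or siMENA11a replicates 1 and 2 (0.0573 to 0.142), after median-ratio scaling (0.0649) or quantile normalization (0.106), and with only the 6 libraries compared (0.0821), with 0.0147 to 0.142 over all alternatives.

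FKBP2, a small proline isomerase, fell by 0.18 under siMENA (adjusted p 0.0367), from a mean of 75.1 to 66.0 FPKM. Its call ended without control replicate 1 (0.124), control replicate 3 (0.0912), siMENA replicate 1 (0.0859), siMENA replicate 2 (0.0592), siMENA replicate 3 (0.104) or siMENA11a replicate 1 (0.0551), and with repaired values set to missing (0.101), with 0.0254 to 0.124 over all alternatives. PDIA3, the glycoprotein-directed partner of CALR and CANX, did not pass. Its means were 173.9, 158.6 and 153.1 FPKM in control, siMENA and siMENA11a, every siRNA library lay below control, and the adjusted p was 0.152 and 0.0563. CRELD1 had means of 5.99, 7.21 and 7.65 FPKM and did not pass (adjusted p 0.176 under siMENA and 0.0853 under siMENA11a), but passed with the replicate block (0.0262 and 0.00839).

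**Figure D3:**
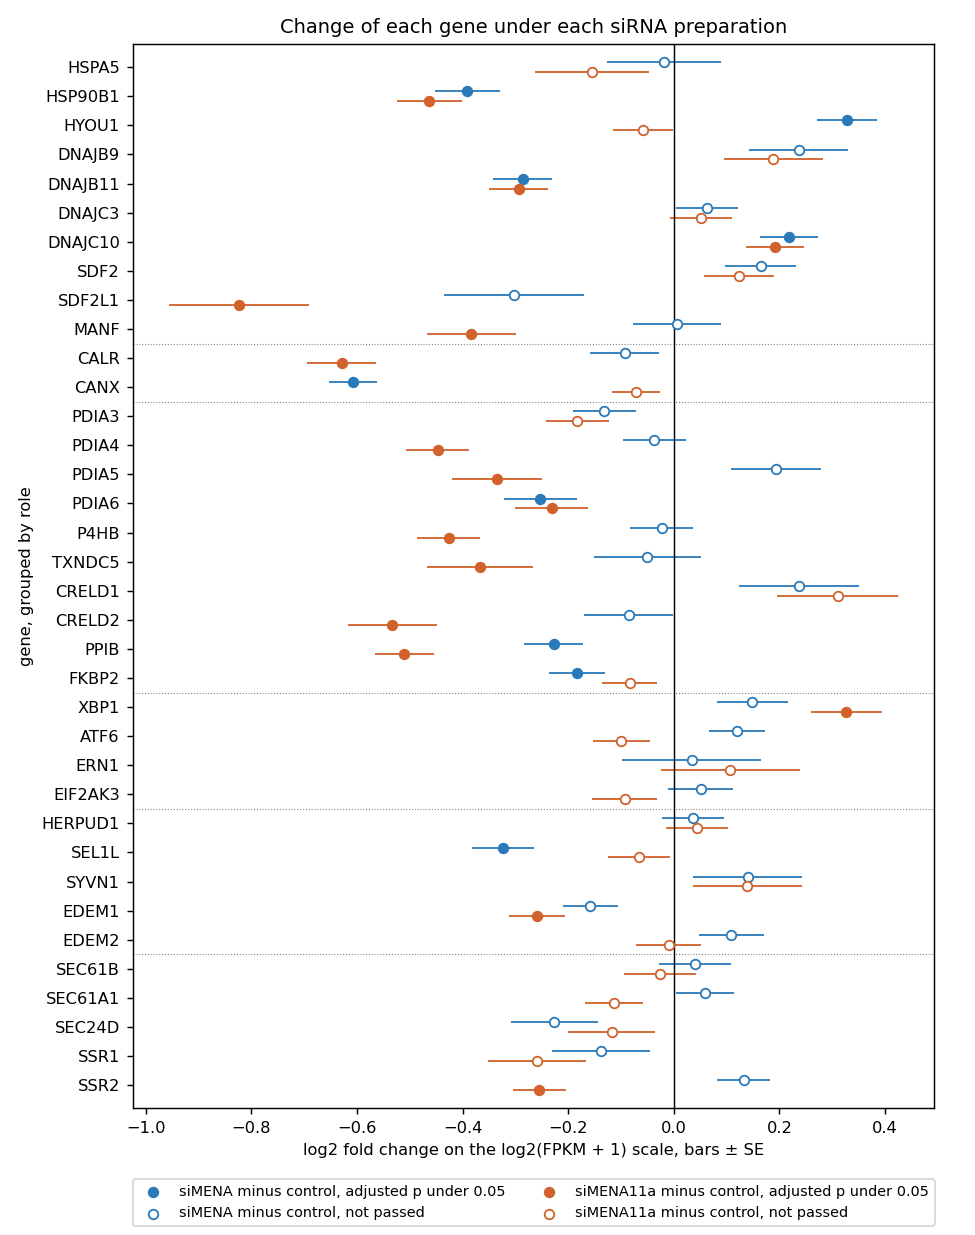
Log2 fold change of each of the 36 genes (rows, grouped by role) against control on the log2(FPKM + 1) scale, bars ± SE, for siMENA in blue and siMENA11a in orange; filled points had an adjusted p under 0.05. Filled orange points lie left of 0 for 7 of the 10 isomerases, and CALR and CANX each have 1 filled point, from different preparations.

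Of the 4 sensors and transcription factors, XBP1 rose under siMENA11a, and under siMENA none passed without the replicate block. Of all tested genes 8.16% rose under siMENA11a and 10.3% under siMENA, so this is not read as a result about the sensors. XBP1, the transcription factor whose mRNA is spliced by IRE1, measured 57.8, 61.6 and 57.0 FPKM in control, 65.3, 69.2 and 61.4 in siMENA, and 73.5, 79.8 and 68.9 in siMENA11a. All siMENA11a libraries were above control, and XBP1 rose by 0.33 (SE 0.07, adjusted p 0.00909) to 126% of control; under siMENA the groups overlapped (log2 fold change 0.15, adjusted p 0.153, and 0.0448 with the replicate block). The values are per gene, so spliced and unspliced XBP1 were not distinguished. ATF6, the sensor that is cleaved to a transcription factor, measured 11.2, 11.3 and 11.0 FPKM in control, 12.8, 11.7 and 12.2 in siMENA, and 10.4, 10.2 and 10.5 in siMENA11a. The groups did not overlap, with siMENA above and siMENA11a below control, and neither comparison with control passed (adjusted p 0.147 and 0.225). Between the siRNA groups ATF6 differed by -0.22 (SE 0.05, adjusted p 0.0103).

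ERN1, the kinase and nuclease IRE1, was near the low end of the range at 0.608, 1.04 and 1.03 FPKM in control, 0.749, 0.953 and 1.10 in siMENA, and 0.944, 1.34 and 0.835 in siMENA11a. The groups overlapped, and the 95% interval of the log2 fold change under siMENA11a was -0.19 to 0.40. EIF2AK3, the kinase PERK, measured 13.2, 13.9 and 13.2 FPKM in control, 12.9, 14.3 and 14.7 in siMENA, and 12.6, 12.1 and 12.8 in siMENA11a. The siMENA11a libraries were below all others by a small margin, and no comparison passed (log2 fold change -0.09 against control, 95% interval -0.23 to 0.04, adjusted p 0.323).

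Of the 5 degradation genes, 1 fell under each preparation (8.24% of all tested genes under siMENA and 11.3% under siMENA11a), which is not read as a result about degradation. SEL1L, the adaptor of the ubiquitin ligase SYVN1 (HRD1), measured 26.1, 26.1 and 27.2 FPKM in control, 19.7, 21.4 and 21.8 in siMENA, and 25.1, 24.0 and 26.8 in siMENA11a. It was lowest in siMENA, where it fell by 0.32 (SE 0.06, adjusted p 0.0056), and was higher in siMENA11a than in siMENA by 0.26 (adjusted p 0.00744). EDEM1, which helps pass misfolded glycoproteins to degradation, fell by 0.26 (SE 0.05, adjusted p 0.00838) under siMENA11a, from a mean of 39.9 to 33.2 FPKM; under siMENA its mean was 35.7 FPKM (adjusted p 0.0624). HERPUD1, SYVN1 and EDEM2 passed in no comparison, with log2 fold changes against control between -0.01 and 0.14.

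Among the translocation and export genes, SSR2, the beta subunit of the signal sequence receptor at the translocon, fell by 0.25 (SE 0.05, adjusted p 0.00753) under siMENA11a, from 142.2 ± 3.1 to 119.0 ± 2.4 FPKM. In siMENA it measured 156.1 ± 6.5 FPKM, above control in every library without passing (adjusted p 0.0953), and siMENA11a was lower than siMENA by -0.39 (adjusted p 0.00035). SEC61A1, the pore-forming subunit of the translocon, differed between the siRNA groups alone (log2 fold change -0.17, adjusted p 0.0335). That call ended without siMENA replicate 1 (0.0568), siMENA replicate 2 (0.128), siMENA11a replicate 1 (0.0622) or siMENA11a replicate 3 (0.0953), after median-ratio scaling (0.0998) or quantile normalization (0.0829), and with only the 6 libraries compared (0.0643), with 0.0303 to 0.128 over all alternatives. SEC61B, SSR1 and the COPII cargo adaptor SEC24D passed in no comparison. Of all tested genes 11.3% fell under siMENA11a, so the fall of SSR2 is not read as a result about translocation.

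The genes that fell were also counted by abundance and by promoter element. Under siMENA11a, 6 of 10 genes averaging 100 FPKM or more fell (15.6% of all tested genes at that level), 6 of 14 between 25 and 100 FPKM (17.2%), and 2 of 12 under 25 FPKM (9.33%). Of the 7 genes with an ERSE match, 4 fell and 1 rose under siMENA11a, HSP90B1, CALR, PDIA6 and CRELD2 against XBP1, while HSPA5 and CANX did not pass. Of the 27 without a match, 10 fell and 1 rose. Over all tested genes 11.3% fell and 8.16% rose under siMENA11a, and 8.24% fell and 10.3% rose under siMENA. Under siMENA, 3 of 7 with a match fell (HSP90B1, CANX and PDIA6) and none rose, and 4 of 27 without a match fell and 2 rose. Of all 15 tested genes with a match, these 7 included, 6 fell and 1 rose under siMENA11a and 3 fell under siMENA. PDIA6 lost its call in 5 of 16 alternatives under siMENA and in 10 of 16 under siMENA11a. With so few genes the split is not read as a result about the element. Of the 3 genes with ERSE-II, HYOU1 rose most under siMENA (log2 fold change 0.33) and did not pass under siMENA11a (-0.06). SDF2L1 fell most under siMENA11a (-0.82) and did not pass under siMENA (-0.30). HERPUD1 passed in neither (0.04 and 0.04).

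**Figure D4:**
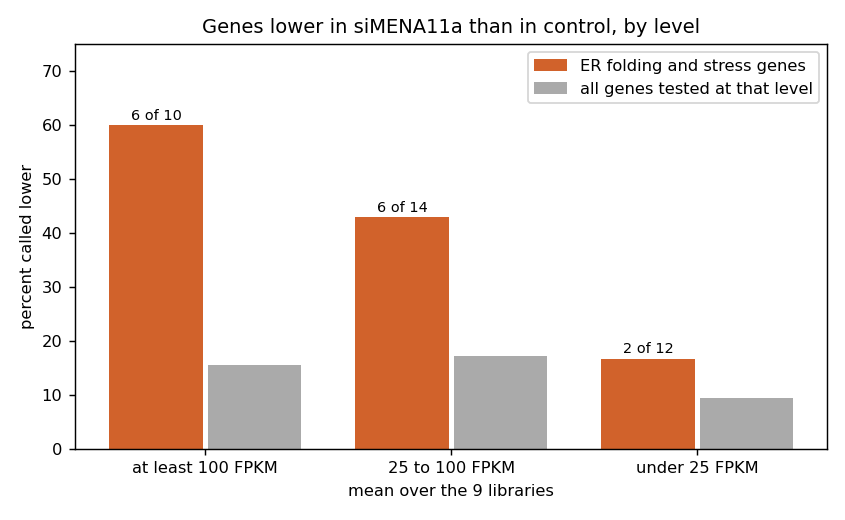
Percent of genes called lower in siMENA11a than in control, by mean FPKM over the 9 libraries, for the ER folding and stress genes (orange, with counts above the bars) and for all genes tested at that level (grey). The orange bars stand for 6 of 10, 6 of 14 and 2 of 12 genes and the grey bars for 15.6%, 17.2% and 9.33%.

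The siMENA11a siRNAs are directed at exon 11a, and their own sequences were not compared with it. The exon was taken as the short ENAH exon holding both words marked below, so their presence in it follows from that choice. It lies at chr1:225504991-225505053 on the minus strand of GRCh38 in GENCODE and is 63 bases long. It is printed because short words of it recur in 3′ UTRs; the capitals mark the overlapping words CCAAGGA and CAAGGAA.
ENAH exon 11a: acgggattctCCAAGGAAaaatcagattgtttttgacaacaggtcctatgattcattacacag
These words were picked in an earlier analysis of these same libraries and support nothing here. In the longest annotated 3′ UTR, 12 of the 36 genes held either word (33.3%), against 24.2% of 12186 genes searched, with a median UTR of 929 bases against 1350. Of the 14 genes that fell under siMENA11a, 1 held a word, P4HB, shown with 10 bases on each side.
P4HB: ggggaggtggCCAAGGAtgctggagct
The words picked in the same way for siMENA, CAGAATA and AGAATAA, were in 9 of the 36 genes (25%, against 26.6%) and in 2 of the 7 that fell under siMENA.
CANX: ggtcaaagtaCAGAATAgaatacattg
PDIA6: tttccattaaAGAATAAaatattttgg
Whether these words bear on the level of P4HB, CANX or PDIA6 was not tested.

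Other genes of the same pathways were taken from longer lists, chosen with earlier results of these libraries known. Their counts stand beside shares of all tested genes of 10.3% higher and 8.24% lower under siMENA and 8.16% higher and 11.3% lower under siMENA11a. Lists of this size differ from those shares by a few genes at most, so the counts are not read as results about the lists. Of 20 further disulfide and proline isomerase enzymes tested, 3 fell and 1 rose under siMENA11a: the cyclophilin PPIC fell by 0.68 (adjusted p 0.000793), TXNDC12 fell by 0.32 and FKBP9 fell by 0.27. The oxidase ERO1L, which reoxidises disulfide isomerases, rose by 0.24. Under siMENA 2 rose (TMX1 by 0.43 and TXNDC12 by 0.30) and 2 fell (ERO1L fell by 0.31 and TMX3 fell by 0.26). TXNDC12 and ERO1L thus lay on opposite sides of control under the preparations, and each differed between the siRNA groups (log2 fold changes -0.62 and 0.54, adjusted p 0.00025 and 5.63e-05).

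At the translocon, 3 of 20 further genes fell under siMENA11a and none rose (11.3% and 8.16% of all tested genes), which is not read as a result about the list. The signal recognition particle receptor subunit SRPR fell by 0.60 (adjusted p 0.000419), SSR3 fell by 0.37 and SEC61A2 fell by 0.34. Under siMENA SEC62 fell by 0.42 and the signal peptidase subunit SPCS3 fell by 0.20. Of 18 genes of N-glycan transfer and glucose trimming, 4 fell and none rose under siMENA11a, led by the catalytic subunit STT3A, which fell by 0.52 (adjusted p 0.00117), and the glucose-binding lectin MLEC, which fell by 0.40. RPN1 and STT3B fell by 0.23 and 0.22. Under siMENA the other catalytic subunit, STT3B, fell by 0.37 (adjusted p 0.00279), OSTC fell by 0.30 and the glucosidase MOGS rose by 0.26.

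Of 18 further degradation genes, 3 rose and 1 fell under siMENA11a and 4 rose and 1 fell under siMENA. Of all tested genes, 8.16% rose and 11.3% fell under siMENA11a, and 10.3% rose and 8.24% fell under siMENA. The counts in this paragraph are not read as results about the lists. EDEM3, a mannosidase-like relative of EDEM1, rose in both (log2 fold changes 0.37 and 0.24), where EDEM1 itself fell under siMENA11a. MAN1B1, the ER mannosidase, rose by 0.35 (adjusted p 0.00144) under siMENA and fell by 0.17 (adjusted p 0.0358) under siMENA11a. Of 15 genes of the PERK branch and the integrated stress response, 2 fell under siMENA, both transcription factors: ATF4 fell by 0.29 (adjusted p 0.00463) and CEBPG fell by 0.30. Under siMENA11a the transcription factors DDIT3 and ATF3 rose by 0.35 (adjusted p 0.0356) and 0.27 (adjusted p 0.0105), and PSAT1, an enzyme of serine synthesis, fell by 0.72 (adjusted p 0.0235). ATF4 was higher in siMENA11a than in siMENA by 0.31 (adjusted p 0.00139).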

How the data were processed

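The authors deposited 1 table of FPKM values for 16630 genes in 9 libraries. Per the submitters' processing notes the build was hg19; for the aligner, quantifier and annotation, the tool or version is not given in the sources used here. In 11524 values (7.91%) the decimal point was lost: whole numbers at least 198 times above the rest of their gene, or in 237 genes with no decimal value, were divided by 1000, and 16 others were kept. Among the 36 genes 101 of 324 values were repaired, in 21 genes, and 6 genes (HSP90B1, CALR, CANX, PPIB, SEC61B and SSR2) had all 9 repaired. A further 1286 genes lacked a value in some library and were not tested. Genes averaging 0.5 FPKM or more were tested as log2(FPKM + 1) with limma 3.58.1 in R 4.3.3, in 1 fit over all 9 libraries with a mean-variance trend and 6 residual degrees of freedom, and Benjamini-Hochberg adjustment over 13273 genes per comparison. The fit was tested on simulated data. Groups came from the sample labels.

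The genes and lists were chosen with earlier results of these data known. Values in every library are given for genes among the 8 largest passing changes of a comparison and for HSPA5, XBP1, ATF6, ERN1 and EIF2AK3; from each longer list up to 4 passing genes per comparison are named. Alternatives were a pseudocount of 0.1, no filter, a minimum of 2 FPKM, median-ratio scaling, quantile normalization, a fit on the 6 libraries compared, repaired values set to missing, a replicate block, and each library left out. The labels number replicates 1 to 3 in each group. Deviations of same-numbered siMENA and control libraries correlated at 0.124, 0.378 and 0.196. For siMENA11a and control the values were 0.206, 0.425 and -0.0302, and for the siRNA groups 0.0863, 0.309 and 0.0203. Some libraries with unlike numbers also correlated. The value was 0.113 for siMENA replicate 3 with control replicate 1, and 0.321 for siMENA11a replicate 3 with control replicate 1. These values do not settle whether the numbers mark pairs. The main fit has group only, and the replicate block is an alternative. Promoters are RefSeq entries on GRCh38.p14; exon 11a and 3′ UTRs are from GENCODE on GRCh38. Neither is the authors' build, and these coordinates were used for no expression value.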

Additional observations from a re-analysis of the deposited data

How the results depend on the processing

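Of the 40 calls on the 36 genes over the 3 comparisons, 29 held in every alternative run for them (5 of 9 for siMENA, 12 of 16 for siMENA11a and 12 of 15 between the siRNA groups); with repaired values set to missing, 24 of the 40 could be recomputed. Of 664 recomputed results 605 kept the call, 59 lost it and none reversed; 48 of the 59 came from leaving out 1 library, which also leaves fewer libraries. With 1 library left out, genes higher and lower numbered 1 to 3 and 4 to 8 under siMENA, and 1 to 2 and 11 to 14 under siMENA11a; all tested genes called ranged from 1346 to 2902 (2463 with all libraries) and from 1493 to 2483 (2583). With repaired values set to missing, which removes genes from the test, 2 genes were lower and 2 higher under siMENA, and 7 lower and 2 higher under siMENA11a. Between the siRNA groups 8 were lower and 1 was higher. Of the 24 calls that could be recomputed, 22 were kept and 2 lost. Calls over all genes in that run numbered 1991 under siMENA and 2166 under siMENA11a. With the replicate block, siMENA gave 5 higher and 7 lower and siMENA11a 3 and 16 (adding CRELD1, PDIA3 and SSR1). Between the siRNA groups the block gave 3 and 13 (adding XBP1), and it ended no call. Calls over all tested genes also rose with the block. They went from 2463 to 3149 under siMENA, from 2583 to 3431 under siMENA11a and from 4857 to 5648 between the siRNA groups. Library names run control, siMENA and siMENA11a within each replicate number, and no label says whether equal numbers mark shared cultures or days. Depth is unknown, so no counting interval can be given, and for ERN1, near 1 FPKM, a change within its interval could not be seen.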

Other observations

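Of 11 genes tested of the COPII coat, which carries folded cargo out of the ER, 4 rose and 2 fell under siMENA (10.3% and 8.24% of all tested genes), and 1 rose and 2 fell under siMENA11a (8.16% and 11.3%). No statement about the coat as a whole is made from these counts. The paralogous inner coat subunits SEC23A and SEC23B both rose under siMENA, from 40.8 ± 1.4 to 59.9 ± 4.7 FPKM and from 29.9 ± 0.4 to 38.2 ± 2.0 FPKM (mean ± SD, n = 3; limma adjusted p 0.00107 and 0.00904). Under siMENA11a SEC23A rose to 51.1 ± 3.7 FPKM (adjusted p 0.0134) and SEC23B fell to 20.2 ± 2.0 FPKM (adjusted p 0.000985). SEC24A, a cargo-binding subunit, fell from 11.7 ± 0.6 to 7.27 ± 0.56 FPKM under siMENA (adjusted p 0.000522). PREB, the exchange factor that starts coat assembly, fell from 27.6 ± 0.3 to 20.0 ± 0.4 FPKM under siMENA11a (adjusted p 0.00133).

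Of 13 further stress sensors and co-chaperones tested, 1 rose and 2 fell under siMENA, against the same shares of all tested genes, and none passed under siMENA11a. TMBIM6, a membrane protein that restrains ER stress-linked cell death, fell from 429.6 ± 10.8 to 352.0 ± 10.9 FPKM under siMENA (adjusted p 0.00809), the calcium-binding NUCB2 fell by 0.37 on the log2 scale (adjusted p 0.0112), and BAK1, a pore-forming protein of apoptosis, rose by 0.44 (adjusted p 0.00455).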
